A study of Mus musculus with 24 samples.

Results

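Foxa1 binding in the hepatocyte-like line 4a1 was compared with Foxa3 binding in the hepatocyte-like line 4a3, by the positions of the peaks listed for each chromatin immunoprecipitation (ChIP-seq) library. The comparison takes the 3 Foxa1 lists of line 4a1 and the 3 Foxa3 lists of line 4a3, which are 6 of the 14 peak lists of the series and hold 10522 of its 26332 peaks. The lists were chosen by their titles and antibodies, and the Flag lists were left out. Both lines are induced hepatocyte-like (iHep) cells of strain C57BL/6, made by infecting mouse embryonic fibroblasts of day 13.5 post coitum. Line 4a1 received Foxa1 and Hnf4alpha, and line 4a3 received Foxa3 and Hnf4alpha, so Hnf4alpha was introduced into both. The labels name no vector, promoter or clone number for either line. Lists used only for look-up came from line 4a2 (Foxa2 and Hnf4alpha, 3 Foxa2 lists) and from hepatocytes of 10-week-old adult mice (1 EGS list each for Foxa1, Foxa2 and Foxa3).

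The Foxa proteins form a small family of forkhead transcription factors whose DNA-binding domains are closely related. They are known as pioneer factors, able to bind DNA in closed chromatin, and act in the formation of endoderm and liver. Hnf4alpha is a nuclear receptor that controls many hepatocyte genes. Each Foxa factor, paired with Hnf4alpha, is known to turn fibroblasts into hepatocyte-like cells, so a natural question is whether different Foxa factors occupy the same places in the cells they produce.

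In these data most merged regions held peaks of only 1 line, and most also sat in only 1 list. Peaks of the Foxa1 non-EGS list were found at 19.4% in the other Foxa1 lists and at 9.04% in line 4a3. Peaks of the Foxa3 non-EGS list were found at 12.6% in the other Foxa3 lists and at 7.48% in line 4a1. The part of low recurrence within a line in the low sharing between lines was not tested. Of 8439 merged regions, 431 held a peak of both lines, 3535 held Foxa1 peaks alone and 4473 held Foxa3 peaks alone. The shared regions were, at 95.4%, also Foxa2 regions of line 4a2. Foxa1 regions without a Foxa3 peak were Foxa2 regions in 68.3% of cases, and Foxa3 regions without a Foxa1 peak in 9.01%. These shares lean on 1 long list: without the non-EGS list of line 4a2 they were 66.4%, 13.8% and 3.02%, in the same order. The lists then left share their run code with 1 Foxa1 list, and with no Foxa3 list whose run code is given. Foxa3 peaks stood in clusters more often than Foxa1 peaks in every full list. Merging peaks within 1 kb narrowed the mean difference, Foxa1 minus Foxa3, from -46.3 to -23.9 points. In the 2 longer Foxa3 lists, isolated peaks were found in line 4a1 more often than clustered ones.

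The factor, the line and the antibody change together between the groups and cannot be told apart. Within each line, 2 libraries carry EGS in their title, a term the labels do not spell out, and 1 does not (non-EGS). Replicate numbers are those of the titles: 1 and 2 for the Foxa1 EGS lists, 1 and 3 for the Foxa3 EGS lists, and 2 for both non-EGS lists. Whether the numbers mark separate inductions is not stated, and p-values over libraries therefore reflect only how far these samples spread, which can be technical. With 3 libraries against 3, an exact two-sided permutation test cannot give a p below 0.1, so no comparison of libraries here could pass a threshold of 0.05. The Foxa3 non-EGS library, whose list is the longest, has no run code in its title. Only 1 run code, 170, is shared between the Foxa1 and Foxa3 lists, by Foxa1 EGS replicate 2 and Foxa3 EGS replicate 3. Run and line cannot otherwise be told apart. The files hold no read counts, so depth is unknown and list length does not stand for it. The positions were not tied to genes, for lack of an annotation of the files' build (mm9), and the lists cannot test the labelled cell type.

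The Foxa1 lists held 940 peaks (EGS replicate 1), 542 (EGS replicate 2) and 3431 (non-EGS replicate 2). The Foxa3 lists held 1246 peaks (EGS replicate 1), 46 (EGS replicate 3) and 4317 (non-EGS replicate 2). The groups overlapped, and within both lines the non-EGS list was the longest. The geometric mean was 1205 peaks for Foxa1 and 628 for Foxa3, 1.92 times as many (p = 0.9 by a two-sided exact permutation test). The list of 46 peaks decided that direction: without it the Foxa3 mean was 2319 and the ratio 0.519 (exact permutation p = 0.4, two-sided). Median peak widths were 143, 144.5 and 417 bp in the Foxa1 lists and 149, 147.5 and 180 bp in the Foxa3 lists, in the same order. The difference of 76.0 bp (exact permutation p = 1, two-sided) came from the Foxa1 non-EGS list, whose narrowest peak was 317 bp wide, against 127 bp in the Foxa3 non-EGS list. Without that list the difference was -15.1 bp.

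The peak names of the non-EGS lists do not follow the line numbers: those of the Foxa1 list carry F3 and Foxa1, those of the Foxa3 list carry F1. Those of the Foxa3 list also carry 1per_protocol, which those of the Foxa1 list do not. The labels do not explain these terms. The overlaps followed the labels. The Foxa1 EGS lists were found at 61.6% (replicate 1) and 58.5% (replicate 2) in the Foxa1 non-EGS list, and at 22.9% and 19% in the longer Foxa3 non-EGS list. The Foxa3 EGS lists were found at 51.0% (replicate 1) and 93.5% (replicate 3) in the Foxa3 non-EGS list, and at 12.5% and 2.17% in the Foxa1 non-EGS list.

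The first comparison asked whether libraries of a line resembled each other more than those of the other line. Similarity of a pair was the share of the shorter list's peaks that overlapped the longer list by at least 1 bp. It ranged from 46.5% to 61.6% within line 4a1, from 51.0% to 93.5% within line 4a3, and from 2.17% to 22.9% between the lines. All 6 pairs within a line exceeded all 9 pairs between lines. The means were 66.0% ± 18.9 within lines (SD, 6 pairs) and 11.5% ± 8.46 between lines (SD, 9 pairs), a difference of 54.5 percentage points. Its exact permutation p of 0.1 (one-sided) is the smallest that the 10 ways to form the lines allow. Without the list of 46 peaks the pairs between lines averaged 16.2% ± 5.99 (SD, 6 pairs) and the difference was 38.2 points (exact permutation p = 0.1).

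**Figure D1:**
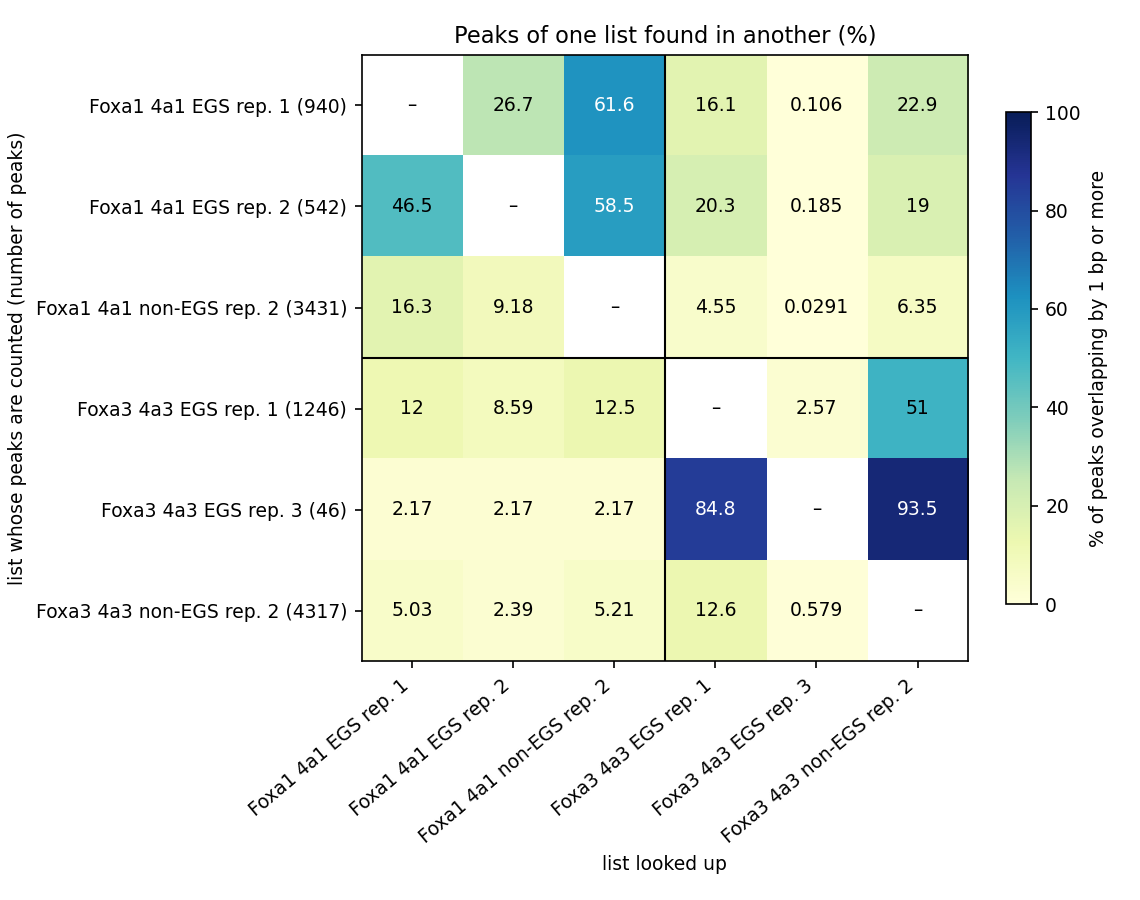
Share of each list's peaks (rows, with the number of peaks) that overlap a peak of another list (columns) by at least 1 bp, in percent, for the 3 Foxa1 lists of line 4a1 and the 3 Foxa3 lists of line 4a3. The blocks within a line hold the high shares (up to 93.5%), and shares between lines stay at or below 22.9%; shares of a long list found in a short one are low by their lengths.

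Between the non-EGS lists, 218 of 3431 Foxa1 peaks (6.35%, exact 95% interval 5.56 to 7.22) overlapped a Foxa3 peak, and 5.21% (4.57 to 5.92) of 4317 Foxa3 peaks overlapped a Foxa1 peak. Between the EGS lists of replicate 1 the shares were higher, at 16.1% (13.8 to 18.6) of 940 Foxa1 peaks and 12.0% (10.3 to 14.0) of 1246 Foxa3 peaks. All intervals given here reflect counting error alone, and neighbouring peaks, which are not independent, make them too narrow. The lists with run code 170 shared 1 peak, which is 0.185% of the Foxa1 list and 2.17% of the list of 46.

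Merged by line, Foxa1 peaks gave 3969 regions over 1578 kb and Foxa3 peaks 4915 regions over 1249 kb, which is 0.0599% and 0.0474% of the genome length that the lists span. Of the Foxa1 regions, 10.9% (9.98 to 11.9) overlapped a Foxa3 region, and of the Foxa3 regions 8.99% (8.21 to 9.83) overlapped a Foxa1 region. Leaving out the list of 46 peaks gave 10.9% and 9.0%. Other libraries moved these shares. Without the Foxa1 non-EGS list they were 27.1% and 6.73%, and without the Foxa3 non-EGS list 5.24% and 16.5%. Of the 3535 Foxa1 regions that overlapped no Foxa3 region, 6.36% lay within 10 kb of one, and of the 4473 Foxa3 regions that overlapped no Foxa1 region, 12.1%. The median distance of these regions to the other line's nearest region was 304 kb for Foxa1 and 136 kb for Foxa3.

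Foxa1 regions that recurred within their line were shared more often. Of those in 1 Foxa1 list, 5.93% (5.15 to 6.80) of 3252 held a Foxa3 peak, of those in 2 lists 28.4% (24.5 to 32.5) of 507, and of those in all 3 lists 45.4% (38.5 to 52.5), which is 94 of 207. For Foxa3 regions it was 7.76% (6.98 to 8.59) of 4371 in 1 list, 17.8% (14.6 to 21.4) of 510 in 2 lists and 1 of 23 in all 3. Without the list of 46 peaks the Foxa3 shares were 7.75% in 1 list and 17.4% of 530 in both remaining lists. Recurrent regions were also wider, with medians of 388, 462 and 529 bp for Foxa1 and 172, 354.5 and 1056 bp for Foxa3 in 1, 2 and 3 lists; the part of width in these shares was not tested. A peak in all 3 Foxa1 lists and in no Foxa3 list was found for 113 regions (1.34% of the 8439), and a peak in all 3 Foxa3 lists and in no Foxa1 list for 22 regions (0.261%). The 22 are limited by the list of 46 peaks, since without it 438 Foxa3 regions were in both remaining lists and in no Foxa1 list. At least 2 lists of each line held 67 regions, and 1 region was in all 6 lists.

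**Figure D2:**
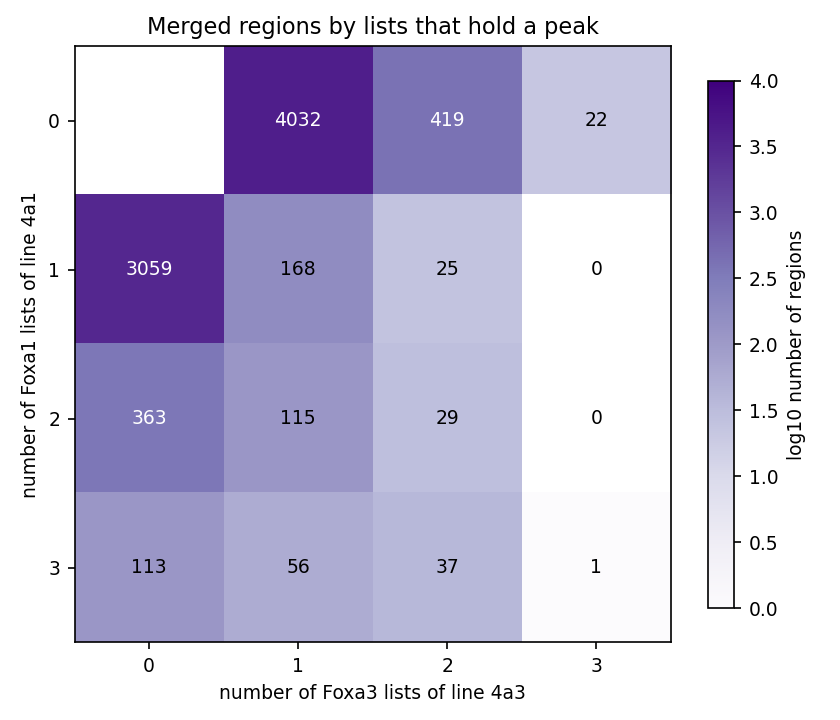
Number of merged regions by how many Foxa1 lists of line 4a1 (vertical axis) and how many Foxa3 lists of line 4a3 (horizontal axis) hold a peak there; the colour gives log10 of the count. Most regions sit in 1 list of 1 line (3059 for Foxa1, 4032 for Foxa3), and 431 of 8439 lie off the 0 row and 0 column.

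The region in all 6 lists lay on chromosome 17 from 35848274 to 35849137 (mm9). It ranked at the 99.8th percentile of the score or above in all 3 Foxa1 lists, and at percentiles 100, 100 and 99.1 in the Foxa3 lists. It was also the only one of those 46 peaks found in line 4a1. The next shared region, on chromosome 4 from 137423111 to 137423609, stood at percentiles 98.9, 99.4 and 83.7 in the Foxa1 lists, and at 90.9 and 93.4 in the Foxa3 EGS replicate 1 and non-EGS lists. It was also found in the hepatocyte Foxa2 list.

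Shared regions did not always rank alike in both lines. The region on chromosome 10 from 86306948 to 86309767 held the highest-ranked peak of all 3 Foxa1 lists, and its Foxa3 percentiles were 97.0 (EGS replicate 1) and 53.6 (non-EGS). On chromosome 3, from 90416555 to 90422388, the widest shared region, of 5834 bp, ran the other way. Its Foxa1 percentiles were 50.8, 66.5 and 66.3, and its Foxa3 percentiles 89.6 and 99.7. Further leading shared regions were found at 51565257 to 51565810 of chromosome 1 and at 41447619 to 41448101 of chromosome 13. The last ones lay at 41577080 to 41577723 of chromosome 4, at 82824303 to 82824811 of chromosome 3 and at 99695172 to 99695720 of chromosome 14. All 8 leading shared regions were Foxa2 regions of line 4a2, 6 of them in all 3 Foxa2 lists. Of all 431 shared regions, 95.4% were Foxa2 regions of that line.

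Foxa1 regions without a Foxa3 peak were led by chromosome 5 from 99713388 to 99713932, at percentiles 94.5, 97.4 and 91.8 in the Foxa1 lists. Chromosome 1 from 99815014 to 99815548 followed, at 92.2, 95.1 and 90.1. These 8 leading regions were 427 to 618 bp wide. All 8 held a Foxa2 peak of line 4a2, and none held a hepatocyte Foxa3 peak. Of all 113 regions in 3 Foxa1 lists and no Foxa3 list, 111 held a Foxa2 peak and 0 a hepatocyte Foxa3 peak. Over all 8439 merged regions these shares were 38.3% and 3.08%.

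The leading Foxa3 regions without a Foxa1 peak were broader. On chromosome 19, from 5838626 to 5845582, 1 non-EGS peak at percentile 100 covered 13 peaks of EGS replicate 1 and 6 of the list of 46. On chromosome 13, from 23830434 to 23832145, the percentiles were 98.3, 95.7 and 99.1, and on chromosome 11, from 69571649 to 69572453, they were 98.8, 93.5 and 99.8. The 8 leading regions were 436 to 6957 bp wide. None held a Foxa2 peak of line 4a2, and 7 held a peak of the hepatocyte Foxa3 list, the exception being that on chromosome 13. Of all 22 regions in 3 Foxa3 lists and no Foxa1 list, 1 held a Foxa2 peak and 19 a hepatocyte Foxa3 peak, against 38.3% and 3.08% of all 8439 merged regions.

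The second comparison used the lists of other cells, which had no part in the choice of the 6. Foxa1 peaks were found among the 11677 Foxa2 regions of line 4a2 at 93.3% (EGS replicate 1), 74.4% (EGS replicate 2) and 71.7% (non-EGS). Foxa3 peaks were found there at 22.6% (EGS replicate 1), 2.17% (EGS replicate 3) and 15.4% (non-EGS). The groups did not overlap. The means were 79.8% ± 11.8 for Foxa1 and 13.4% ± 10.4 for Foxa3 (SD, n = 3 each), a difference of 66.4 points (exact permutation p = 0.1, two-sided, the smallest possible). The difference was 60.8 points without the list of 46 peaks, and 30.5 points when the long non-EGS list of line 4a2 was left out of the look-up.

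Among merged regions, the share found in line 4a2 was 95.4% (92.9 to 97.1) for the 431 shared ones, 68.3% (66.8 to 69.8) for the 3535 of Foxa1 alone and 9.01% (8.19 to 9.89) for the 4473 of Foxa3 alone. Shared regions were wider, with a median of 451 bp, against 400 bp for Foxa1 alone and 174 bp for Foxa3 alone. Among regions 300 to 600 bp wide the shares were 95.8%, 68.1% and 9.55%, so the order was the same at like widths. With only the EGS lists of line 4a2 the shares were 66.4%, 13.8% and 3.02%. With all lists of line 4a2, the share over all 8439 merged regions was 38.3%.

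The hepatocyte Foxa3 list was found the other way round. The length of each hepatocyte list limits the shares it can hold. A low share in such a list therefore does not show that hepatocytes lack binding at those sites. The hepatocyte Foxa3 list held 1.38%, 8.86% and 0.117% of the Foxa1 peaks (EGS replicates 1 and 2, non-EGS). It held 11%, 39.1% and 4.47% of the Foxa3 peaks (EGS replicates 1 and 3, non-EGS). The groups overlapped, and the difference of -14.7 points had an exact permutation p of 0.2 (two-sided). Without the list of 46 peaks the difference was -4.28 points (exact permutation p = 0.4). Without peaks in dense runs, which are runs of at least 5 peaks with gaps of at most 1 kb, the groups no longer overlapped, at 1.38%, 1.76% and 0.117% for Foxa1 and 9.92%, 41.5% and 3.69% for Foxa3.

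The hepatocyte Foxa1 list held 0.319%, 19.2% and 0% of the Foxa1 peaks and 0.482%, 0% and 0% of the Foxa3 peaks. The exact upper bounds for the lists at 0 are 0.107% for the Foxa1 non-EGS list, and 7.71% and 0.0854% for the Foxa3 EGS replicate 3 and non-EGS lists. The 19.2% belongs to Foxa1 EGS replicate 2, which stood apart from the other Foxa1 lists. Of its 542 peaks, 79 filled a run on chromosome 9 from 3000013 to 3038290 and 9 a run on chromosome 17 from 39980033 to 39983266. All 79 and 8 of the 9 overlapped hepatocyte Foxa1 peaks, and without dense runs the share was 3.74%. The stretch on chromosome 9 also held 34 hepatocyte Foxa2 and 36 hepatocyte Foxa3 peaks, and no peak of the other 5 lists. The locus around the run on chromosome 17, from 39980033 to 39985687, held 4 hepatocyte Foxa1, 4 hepatocyte Foxa2 and 7 hepatocyte Foxa3 peaks. It also held 3 peaks of Foxa3 EGS replicate 1, and in line 4a2 9 of Foxa2 EGS replicate 2 and 2 of the non-EGS list. The hepatocyte Foxa2 list held 5.32%, 10.3% and 0.874% of the Foxa1 peaks and 1.69%, 0% and 0.602% of the Foxa3 peaks (difference 4.75 points, exact permutation p = 0.2, two-sided).

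Sites that recurred within a line were found in different places outside it. Of the Foxa1 regions without a Foxa3 peak, 64.3% (62.6 to 66.0) of those in 1 list, 92.6% (89.4 to 95) of those in 2 lists and 98.2% (93.8 to 99.8) of those in 3 lists were Foxa2 regions of line 4a2. Without the non-EGS list of line 4a2 these shares were 8.99%, 38.6% and 63.7%. The median widths of these regions were 389, 461 and 527 bp. Their shares in the hepatocyte Foxa3 list were 1.44%, 0.551% and 0% (of 113, upper bound 3.21%). For Foxa3 regions without a Foxa1 peak the shares in line 4a2 were 9.05% (8.18 to 9.98), 8.83% (6.29 to 12.0) and 4.55% (0.115 to 22.8), and without that list 2.68%, 6.44% and 0% (upper bound 15.4%). These regions had median widths of 167, 321 and 1077 bp, and the part of width in the shares of either line was not tested. Their shares in the hepatocyte Foxa3 list were 2.58% (2.11 to 3.12), 18.6% (15.0 to 22.7) and 86.4% (65.1 to 97.1), the last being 19 of 22 regions. Without the list of 46 peaks, 22.1% (18.3 to 26.3) of the 438 Foxa3 regions in both remaining lists were in the hepatocyte Foxa3 list and 8.68% in line 4a2.

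**Figure D3:**
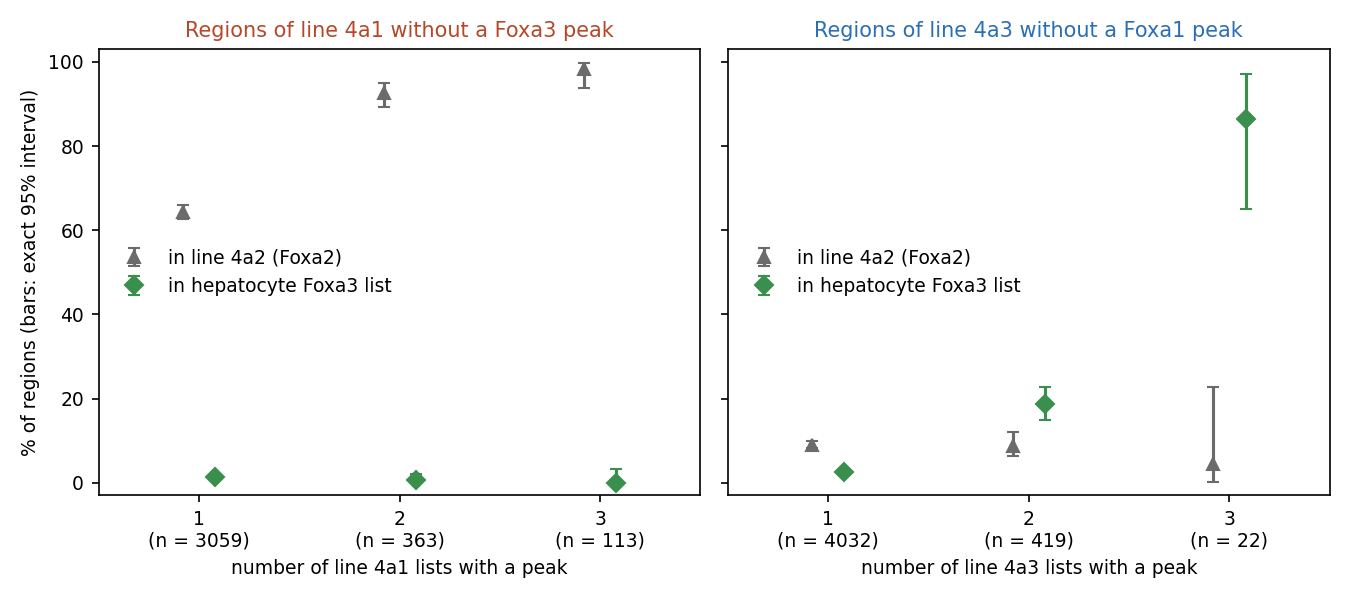
Share of regions found in the Foxa2 lists of line 4a2 (grey triangles) and in the hepatocyte Foxa3 list (green diamonds), by the number of lists of the own line that hold a peak, for regions of Foxa1 alone (left) and Foxa3 alone (right); bars are exact 95% intervals and n is the number of regions. Recurrent Foxa1 regions reach 98.2% in line 4a2 (63.7% without its non-EGS list), and recurrent Foxa3 regions reach 86.4% in the hepatocyte Foxa3 list.

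The third comparison asked how peaks were spaced. A peak was called clustered when another peak of its list lay within 10 kb. Clustered peaks made up 10.7%, 21.0% and 11% of the Foxa1 lists (EGS replicates 1 and 2, non-EGS) and 47.3%, 76.1% and 58.4% of the Foxa3 lists (EGS replicates 1 and 3, non-EGS). The groups did not overlap. The means were 14.3% ± 5.86 and 60.6% ± 14.5 (SD, n = 3 each), a difference of -46.3 points (exact permutation p = 0.1, two-sided, the smallest possible), and -38.5 points without the list of 46 peaks. With peaks within 1 kb merged the difference was -23.9 points (exact permutation p = 0.1, two-sided). In the top 300 peaks of each list it was -31.6 points (exact permutation p = 0.3, two-sided). The non-EGS lists, of like length, differed by -47.3 points: 3431 Foxa1 peaks fell into 3230 loci and 4317 Foxa3 peaks into 2540, where a locus joins peaks within 10 kb. Dense runs were less clear-cut, with 0%, 16.2% and 0% of Foxa1 peaks and 10.2%, 10.9% and 15.1% of Foxa3 peaks (difference -6.66 points, exact permutation p = 0.4, two-sided).

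Clustered and isolated Foxa3 peaks differed in what they shared with line 4a1. In Foxa3 EGS replicate 1, 4.24% (2.77 to 6.20) of 589 clustered peaks and 27.5% (24.2 to 31.1) of 657 isolated peaks were found in line 4a1. In the Foxa3 non-EGS list it was 3.85% (3.13 to 4.68) of 2519 clustered and 12.6% (11.1 to 14.2) of 1798 isolated peaks. In the list of 46 peaks it was 0 of 35 clustered peaks (upper bound 10.0%) and 1 of 11 isolated peaks. Line 4a2 gave the same order, with 7.98% of clustered and 35.8% of isolated peaks in Foxa3 EGS replicate 1, and 11.3% and 21.2% in the non-EGS list. The hepatocyte Foxa3 list gave the opposite one in those lists, with 17.0% of clustered and 5.63% of isolated peaks in EGS replicate 1, and 6.59% and 1.5% in the non-EGS list. In the list of 46 it held 28.6% of clustered and 72.7% of isolated peaks.

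For Foxa1 the split was small in the EGS replicate 1 list, at 29.7% (21.0 to 39.6) of clustered and 31.3% (28.2 to 34.6) of isolated peaks found in line 4a3, and in the non-EGS list, at 8.20% (5.64 to 11.4) and 9.14% (8.14 to 10.2). In Foxa1 EGS replicate 2, where the run on chromosome 9 makes up 79 of 114 clustered peaks, it was 11.4% (6.21 to 18.7) and 34.3% (29.9 to 39.1).

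**Figure D4:**
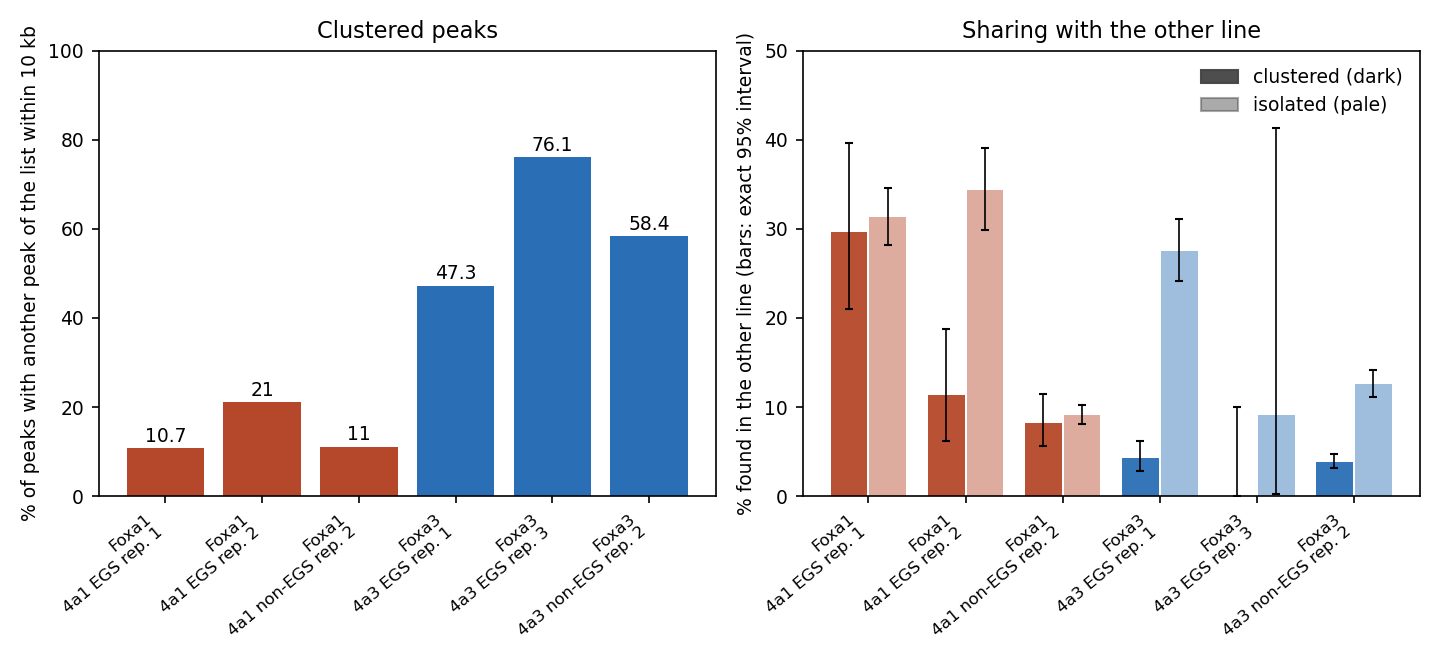
Left, share of peaks with another peak of the same list within 10 kb, for the 3 Foxa1 lists (red) and the 3 Foxa3 lists (blue). Right, share of clustered (dark) and isolated (pale) peaks found in the other line, with exact 95% intervals; isolated Foxa3 peaks of EGS replicate 1 and of the non-EGS list are found in line 4a1 more often than clustered ones.

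Peak numbers of a locus given per factor are summed over the lists of its line, so 1 site can count in several lists. The loci with most Foxa3 peaks held 0 to 5 Foxa1 peaks each. The locus with most Foxa3 peaks lay on chromosome 19 from 5793489 to 5850312, with 30, 17 and 35 peaks in EGS replicate 1, EGS replicate 3 and the non-EGS list. It held 0 Foxa1 peaks and 13 peaks of the hepatocyte Foxa3 list. On chromosome 12, from 55810556 to 55840284, there were 14, 2 and 15 Foxa3 peaks, 0 Foxa1 peaks and again 13 hepatocyte Foxa3 peaks. On chromosome 13, from 23622996 to 23677820, there were 16, 2 and 18 Foxa3 peaks, and neither Foxa1 peaks nor hepatocyte Foxa3 peaks. Another locus rested on 1 library: chromosome 6 from 52171874 to 52211547 held 34 peaks of the Foxa3 non-EGS list and none of the other 5 lists. Further leading loci held peaks of both lines. There were 25 Foxa3 and 4 Foxa1 peaks on chromosome 18 from 43882007 to 43910613. Chromosome 17 from 33908122 to 33925976 held 24 and 2, and chromosome 9 from 69851512 to 69902144 held 24 and 5. On chromosome 10, from 117122903 to 117148257, there were 22 Foxa3 and 0 Foxa1 peaks.

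Foxa1 peaks gathered in smaller groups, again with peaks summed over the lists of a line. Apart from the runs of EGS replicate 2 on chromosomes 9 and 17, the locus with most Foxa1 peaks, on chromosome 10 from 96148883 to 96154080, held 8 Foxa1 peaks and 4 Foxa3 peaks. The locus on chromosome 3 from 69596664 to 69603358 held 6 Foxa1 peaks and 0 Foxa3 peaks. That on chromosome 1 from 99807293 to 99816364 held 5 and 0. The loci on chromosome 10 from 86306948 to 86310863 and chromosome 11 from 112889383 to 112901900 each held 6 Foxa1 and 2 Foxa3 peaks. Chromosome 14 from 100043242 to 100046130 held 5 and 1.

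The list of 46 peaks overlapped mostly high-ranked Foxa3 peaks. Its peaks fell into 22 loci on 11 chromosomes, and 17 of them lay on chromosome 19. Of the 46, 38 were found in both other Foxa3 lists, 18 in the hepatocyte Foxa3 list and 1 in line 4a1. The 32 peaks of Foxa3 EGS replicate 1 that overlapped it had a median score percentile of 93.2, and the 25 of the non-EGS list 99.1.

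Sharing was set against rank within each list. By decile of the score in the Foxa1 non-EGS list, the share found in line 4a3 was 3.21% (11 of 343 peaks) in the lowest decile, 8.75% in the fifth and 22.1% (76 of 344) in the highest. Foxa3 non-EGS peaks were found in line 4a1 at 6.03% (26 of 431), 7.18% and 8.33% (36 of 432) in the same deciles. The list's own line gave a different picture: the share of Foxa3 non-EGS peaks found in other Foxa3 lists was 5.57% in the lowest and 46.1% in the highest decile, and that of Foxa1 non-EGS peaks in other Foxa1 lists 4.66% and 55.2%. The intervals of the lowest and highest Foxa3 decile overlapped for line 4a1 (3.98 to 8.71 and 5.90 to 11.4) and stood apart for the own line.

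In Foxa1 EGS replicate 1, 18.1% of the lowest and 62.8% of the highest decile were found in line 4a3. In Foxa3 EGS replicate 1, 13.7% of the lowest and 12.0% of the highest decile were found in line 4a1. Foxa1 EGS replicate 2 had no steady order, with 27.8% in the lowest, 18.5% in the ninth and 47.3% in the highest decile. The median percentile of shared peaks was above that of the others in all 3 Foxa1 lists, at 64.5 against 44.4, 56.3 against 49.5, and 67.4 against 48.1. In Foxa3 EGS replicate 1 both medians were 52.0, and in the Foxa3 non-EGS list they were 57.4 and 48.8, a wider gap than in Foxa1 EGS replicate 2. In the list of 46 peaks the only shared peak stood at percentile 100, and the median of the others was 46.7. By these medians, ranks gave no contrast between the lines that held in every list. By decile, the share found in the other line was higher in the highest than in the lowest decile in all 3 Foxa1 lists. In Foxa1 EGS replicate 2 the intervals of these deciles overlapped (16.5 to 41.6 and 33.7 to 61.2). They also overlapped in Foxa3 EGS replicate 1 and the Foxa3 non-EGS list. No test was run on ranks.

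**Figure D5:**
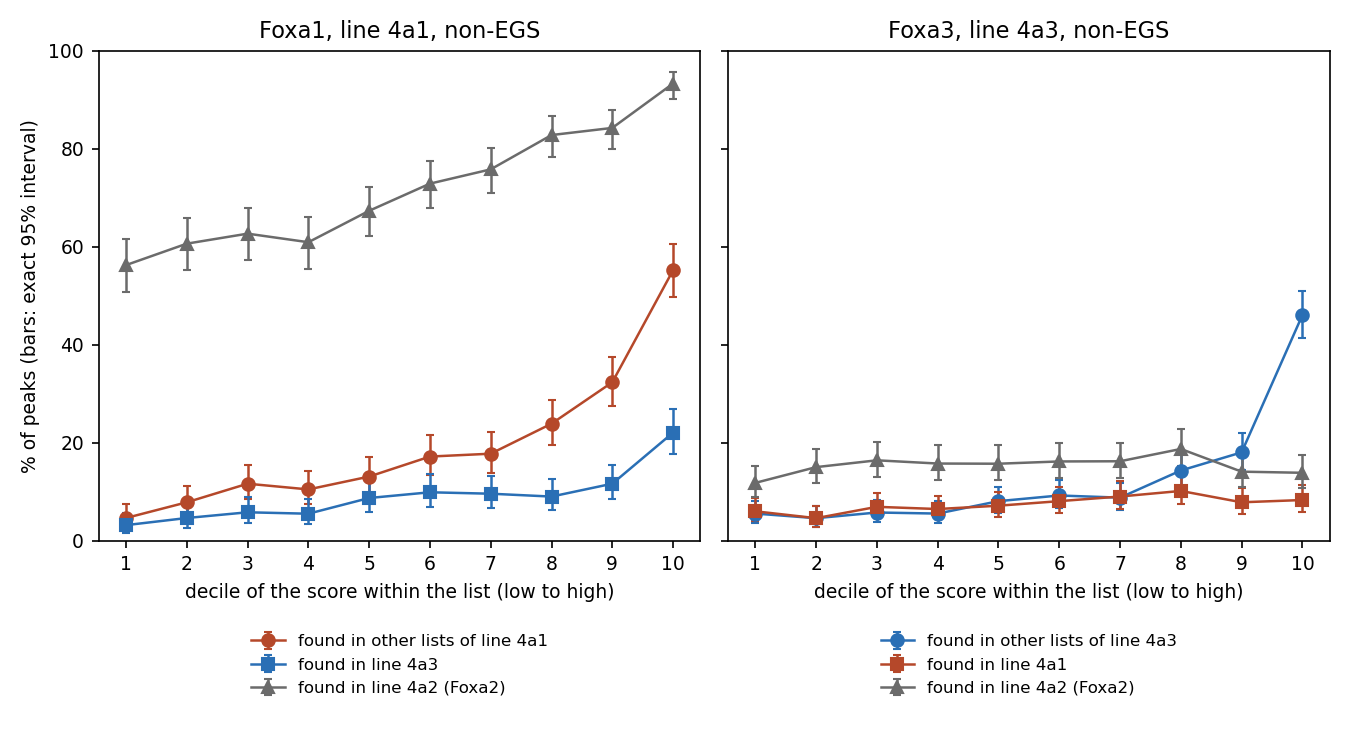
Share of peaks found in the other lists of the own line (circles), in the other line (squares) and in line 4a2 (triangles), by decile of the authors' score within the Foxa1 non-EGS list (left) and the Foxa3 non-EGS list (right), with exact 95% intervals. The share of Foxa1 peaks found in line 4a3 is 22.1% in the highest decile, and the share of Foxa3 peaks found in line 4a1 stays between 4.63% and 10.2%.

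The lists were spread over chromosomes 1 to 19 and X in most cases, and 4 of 20 chromosomes (20%) held shares that did not overlap between the groups. Chromosome 11 held 5.32%, 4.24% and 4.93% of the Foxa1 peaks and 10.0%, 13% and 8.62% of the Foxa3 peaks. Chromosome 19 held 2.66%, 2.03% and 2.80% of the Foxa1 peaks and 4.41%, 37.0% and 3.54% of the Foxa3 peaks. It includes the locus with most Foxa3 peaks, which held 30, 17 and 35 of them in the same order. The chromosome's shares without that locus were not computed. Chromosomes 2 and 16 held larger shares in the Foxa1 lists, for chromosome 16 with 3.617% as the lowest Foxa1 and 3.612% as the highest Foxa3 value. Without the list of 46 peaks 5 chromosomes were apart, but groups of fewer lists overlap less readily, so the counts cannot be compared. How many would stand apart by chance was not computed.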

How the data were processed

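The deposited files are BED peak lists with chromosome, start, end, name and score. The submitters' processing notes name build mm9 and, without role or setting, bedtools 2.16.2, MACS2 2.1.0 and BWA 0.6.2. Each deposited file belongs to 1 library. No source at hand states the threshold or any input subtraction. The score is the authors' own value on an unstated scale and was used only for ranks within a list. Coordinates are mm9, with starts written 1-based.

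Overlaps were computed in scipy 1.17.1, pandas 2.3.3 and numpy 2.4.6 under Python 3.11.15, and figures drawn with matplotlib 3.10.9; the code was tested on simulated lists. Overlap needs at least 1 bp, and merged regions join overlapping peaks. Intervals are exact 95% Clopper-Pearson intervals. Tests are exact permutations over libraries; the 6 give 20 assignments. Regions named are the 8 found in most lists for each set, ties broken by mean score percentile, and the 5 widest shared ones. Lists, rules and tests were chosen with earlier results of these data known. The clustered-peak measure, the loci with most peaks, sharing by recurrence and the look-up by region set, also without the non-EGS list of line 4a2, were added after the values were seen. The reference tables at hand are of build GRCm38.p6, so genes, sequences and the planned forkhead motif count were not used here.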

Additional observations from a re-analysis of the deposited data

How the results depend on the processing

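Depth is unknown and limits which weak sites were listed. Because the smallest exact p is 0.1, no test passed under any setting, and stability means direction only. Similarity within minus between lines (4.64 to 62.3 points, lowest on the Jaccard index), the line 4a2 difference (30.5 to 71.0), the hepatocyte Foxa3 difference (-24.7 to -4.28) and the clustered-peak difference (-53.0 to -23.9) kept their sign in every alternative run. The cause of the changes below was not tested.

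The ratio of peak numbers turned to 0.795 with non-EGS lists only and 0.774 with the replicate block, and ranged from 0.519 to 5.03 with 1 library left out. The width difference turned to -4.5 bp with EGS lists only and ranged from -15.1 to 121.9 bp with 1 library left out. The dense-run difference turned to 4.70 points in the better-scored 50% of a list and to 3.71 in its top 300 peaks, and with 1 library left out ranged from -12.1 to -3.95; merging within 1 kb leaves no runs. Similarity could not be computed for non-EGS lists only, since each line has 1.

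The share of Foxa1 regions in line 4a3 was 8.95% (top-scoring 50%), 7.28% (top 300), 14.1% (EGS only) and 6.35% (non-EGS only), and 5.24% to 27.1% with 1 library left out. The share of Foxa3 regions in line 4a1 was 7.57%, 10.2%, 13.5% and 5.21% in the same settings, 12.9% with peaks merged within 1 kb, 9.88% without dense runs, and 6.73% to 16.5% with 1 library left out.

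The top 300, top-scoring 50%, merging and dense-run settings were applied to the look-up lists of line 4a2 and hepatocytes as well. EGS only and non-EGS only kept just the line 4a2 lists of that kind. The part of the changed look-up in the shares below was not tested. For shared regions the share in line 4a2 was 74.0% (top 300), 77.4% (EGS only), 97.7% (non-EGS only) and 66.4% (no non-EGS list of line 4a2), and 93.2% to 97.9% with 1 library left out. For Foxa1 alone it was 34.2%, 42.2% and 13.8% with the top 300, EGS only and no non-EGS list of line 4a2. It was 65.4% (top-scoring 50%), 70.2% (merged within 1 kb) and 69.9% (without dense runs), and 67.5% to 78.6% with 1 library left out. For Foxa3 alone it was 4.56%, 5.74%, 10.2% and 3.02% in the order given for shared regions. It was 7.62% (overlap of 50% of the narrower peak), 7.22% (top-scoring 50%) and 12.3% (merged within 1 kb), and 8.62% to 10.9% with 1 library left out.

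The lines share only the replicate numbers 1 (EGS) and 2 (non-EGS), with 2 pairs and no label that ties them. With this replicate block the line 4a2 difference was 63.5 points and the clustered-peak difference -41.9, and the smallest exact p is 0.5. Permuting within EGS and within non-EGS libraries allows no p below 0.167.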
